A study of Mus musculus with 20 samples.

Results

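Mitochondrial ribosomal protein genes were the 79 genes whose symbol begins with Mrps or Mrpl followed by a number and that reached at least 1 CPM (reads of a gene per 1000000 reads) in at least 5 libraries, out of 13502 genes that reached this level and 17415 genes listed. All 79 listed genes of this name pattern reached it, 29 with an Mrps symbol and 50 with an Mrpl symbol. Their expression was followed by RNA sequencing in quadriceps muscle of mice given a surgical anterior cruciate ligament transection (ACLT), 7 days after the operation. There were 4 groups of 5 libraries. The GDF8 Ab ACLT group held injured limbs of mice given an antibody against GDF8 (myostatin, a secreted inhibitor of muscle growth), and the GDF8 Ab control group held non-injured limbs under the same antibody. The PLA Ab ACLT and PLA Ab control groups held injured and non-injured limbs of mice given a placebo antibody, so that every mouse in the series received an antibody. The study's methods describe ACLT on a single limb, the other hind limb as control, animals aged 4 to 5 months, both sexes, and C57BL/6J and Col1-eGFP mice for antibody treatment. Which of these strains gave a library is not stated in the sources used here.

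The mitochondrial ribosome translates the few messages that mitochondrial DNA encodes, all of them for subunits of the respiratory chain and ATP synthase. Its proteins are all encoded in the nucleus, made on cytosolic ribosomes and imported, and its small subunit decodes the message while its large subunit forms the peptide bond. Some of its proteins descend from bacterial ribosomal proteins and others are found only in mitochondria, and muscle, with its dense mitochondria, expresses the whole set.

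By their known place in the mammalian mitoribosome, 51 of the 79 genes encode large subunit proteins and 26 encode small subunit proteins. Mrps18a and Mrps30 are counted in the large subunit despite their symbols. Mrps36 is placed in neither, because its product is now known as KGD4, a part of the oxoglutarate dehydrogenase complex of the tricarboxylic acid cycle. Mrpl23-ps1 is a processed pseudogene of Mrpl23. Of the others, 46 have a bacterial homolog and 31 are specific to mitochondria. The genes lay on 17 chromosomes.

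Library depth ranged between 15.6 and 24.2 in units of 1e+06 reads, and each library's deposited values summed to 1000000 CPM. Injured limbs under PLA Ab differed most among themselves. The 6 macrophage marker genes summed to 242, 486, 310, 1118 and 1602 CPM in PLA Ab ACLT libraries 1 to 5, against 25.7 to 71.9 CPM in PLA Ab control. The 6 matrix marker genes summed to 12402 and 16084 CPM in PLA Ab ACLT libraries 4 and 5, against 245 to 517 CPM in PLA Ab control. In this comparison 6 of 6 macrophage, 5 of 6 matrix and 4 of 4 satellite cell and new fibre markers rose, and 0 of 6 muscle fibre markers passed the test. Of all tested genes 28% rose and 1.49% fell. The median log2 fold change of the muscle fibre markers was -0.21, and all these values hold for CPM. In injured limbs 6, 3 and 4 of the macrophage, matrix and satellite cell and new fibre markers were lower under GDF8 Ab than under PLA Ab. There 17.6% of all tested genes were lower. Because these are whole-muscle libraries, fewer cells of a type and less RNA per cell cannot be told apart. The part of these other cells in the values of the mitoribosomal genes was not tested. Y-linked expression marked 6 libraries, and both limbs of a number matched in 10 of 10 cases. The marked libraries were numbers 1 and 3 under PLA Ab and number 3 under GDF8 Ab, so the sexes were not balanced between antibodies. In PLA Ab ACLT the unmarked libraries 2, 4 and 5 had higher macrophage marker sums than the marked libraries 1 and 3. The part of sex in this spread was not tested.

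Mean levels over the 20 libraries spanned 8.10 to 136 CPM, with a median of 31.2 CPM. Mrpl42, Mrpl51, Mrpl12 and Mrpl30 had the most reads, with 136, 102.7, 90.9 and 76.4 CPM. Mrpl23, Mrps6, Mrps22 and Mrps11 had the fewest, with 8.10, 10.8, 13.3 and 13.5 CPM. Reads of Mrpl23 and of its pseudogene Mrpl23-ps1, which had 40.6 CPM, may be split uncertainly between the 2, whose sequences were not compared here. Counting whole gene spans, introns included, 32 of the 79 genes share bases with another listed gene, 8 of them with a gene of higher mean CPM. How many reads fell in shared bases was not counted. The span of Mrpl18 shares 646 bases with that of Tcp1 on the other strand, a chaperonin gene at 134 CPM. Without a stated strand setting any reads from these shared bases cannot be told apart.

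Divided by transcript length, levels ranged between 3.50 and 204 CPM per kb. Mrpl42, a large subunit protein specific to mitochondria, was highest at 212 ± 14.2 CPM per kb in GDF8 Ab ACLT, 210 ± 17.4 in GDF8 Ab control, 183 ± 23.5 in PLA Ab ACLT and 212 ± 28.2 in PLA Ab control (SD, n = 5 each). Mrps21 followed at 149 CPM per kb and Mrpl33, a small rRNA-bound protein of the large subunit, at 103.5 CPM per kb. These 3 levels did not overlap by 1 SD, except Mrpl42 and Mrps21 in PLA Ab ACLT. The next in order, Mrpl30 at 78.8, Mrpl23-ps1 at 70.0 and Mrpl12 at 69.0 CPM per kb, overlapped by 1 SD in every group. Mrpl19 and Mrps35 were lowest, at 4.17 and 3.50 CPM per kb. The median was 22.9 CPM per kb over the 51 large subunit genes and 15.7 CPM per kb over the 26 small subunit genes. The libraries do not say which transcript was used, so a long annotated 3' end lowers a value of this kind.

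**Figure D1:**
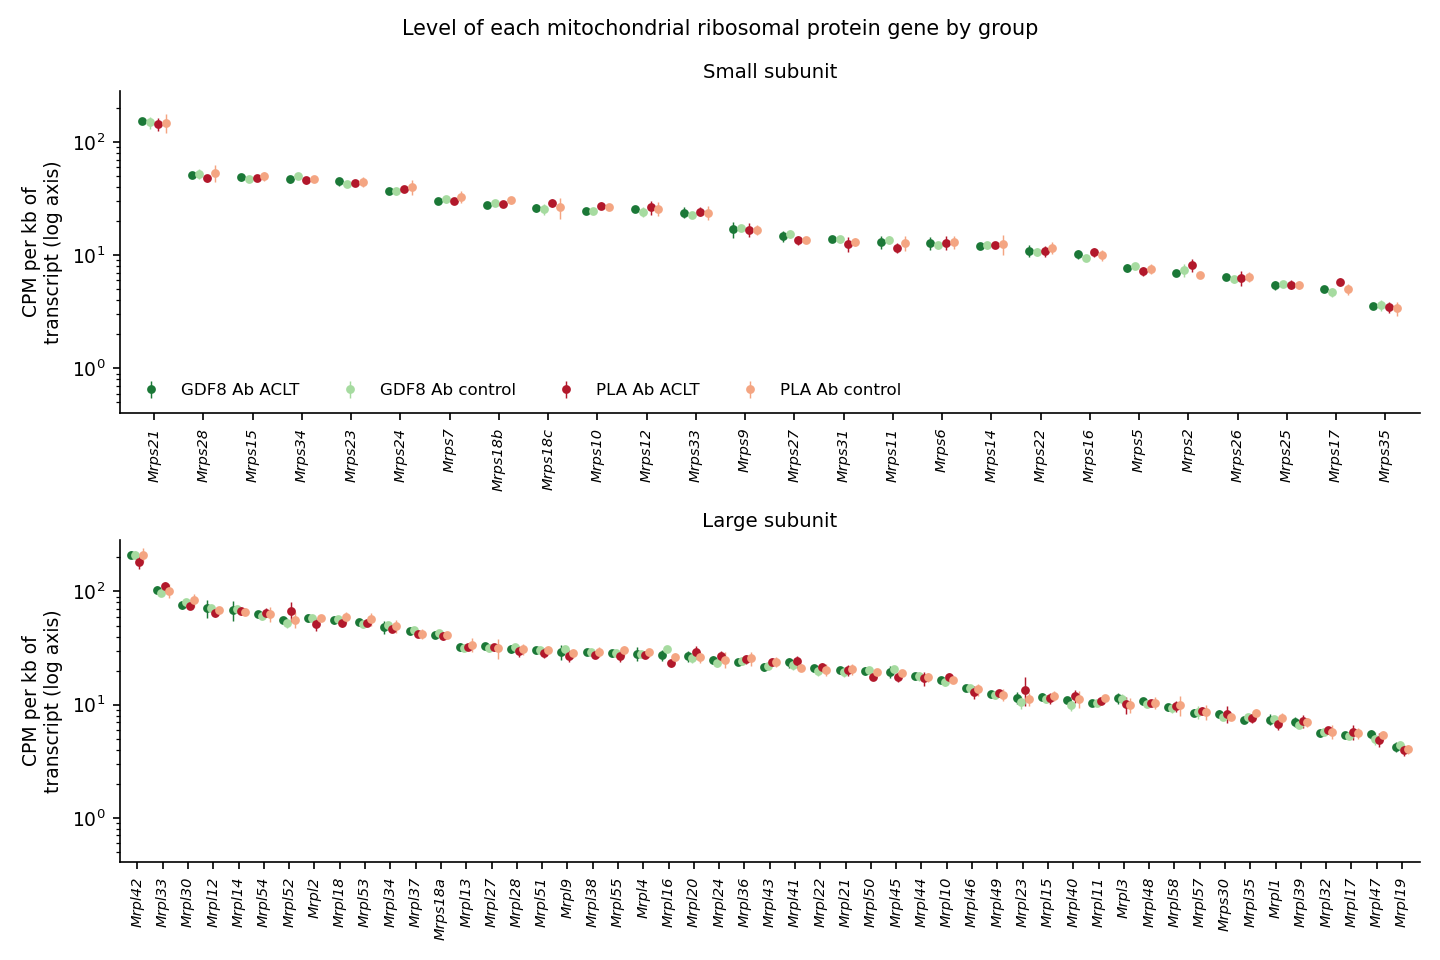
Level of each mitochondrial ribosomal protein gene in CPM per kb of transcript (log axis), with points for the mean and bars for the SD of the 5 libraries of each group, ordered by level within each panel. Levels run between 3.50 CPM per kb for Mrps35 and 204 CPM per kb for Mrpl42, and the 4 groups of a gene lie close together.

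In CPM the genes varied little between libraries. The coefficient of variation of CPM over all 20 libraries had a median of 9.66% for the 79 genes, between 5.70% for Mrps18b and 20.5% for Mrpl23. The median was 23.6% over all tested genes and 17.4% over the 7499 tested genes within the same range of mean CPM. It was 25.4% over 96 genes of cytosolic ribosomal proteins. These values hold for CPM, and no coefficient was computed on the other scale described below. On that scale the summed level of the 79 genes ranged over 1878 to 3257, against 2627 to 3237 in CPM.

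Promoters were read from RefSeq on GRCm38.p6, as 250 bases before and 50 after each start, and 69 of the 79 genes had one. They were searched on both strands for 3 short motifs of factors known to act on nuclear genes for mitochondrial proteins: the NRF1 core GCGCATGC, the ETS motif CCGGAAGT bound by the GABP factor (NRF2), and the YY1 motif AAGATGGC. The NRF1 core stood in 8 of the 69 genes (11.6%), against 3.05% of all 27025 genes of the promoter table and 5.81% of 10102 other tested genes. The ETS motif stood in 12 genes (17.4%), against 4.31% and 8.76%, and also in 11 of 61 cytosolic ribosomal protein genes (18.03%). The YY1 motif stood in 12 genes (17.4%), against 3.19% and 5.12%. Among the 61 cytosolic ribosomal protein genes the NRF1 core stood in 3 (4.92%) and the YY1 motif in 6 (9.84%). At least 1 motif stood in 29 genes, 40 held none, and 3 genes held a pair of them. These are Mrpl32 (NRF1 and YY1), Mrpl33 (NRF1 and ETS) and Mrps27 (ETS and YY1), whose promoters are shown for that reason, together with that of Mrpl42, the gene with the highest level, which holds the YY1 motif alone. Capitals mark the motifs in either direction, read 5' to 3' on the gene's strand; in Mrpl32 a forward and a reverse NRF1 match overlap in a run of 10 capitals. A match is a description of letters and not a binding site. Positions are chr13:14612988-14613287 on the minus strand for Mrpl32, chr5:31613701-31614000 on the plus strand for Mrpl33, chr13:99344536-99344835 on the plus strand for Mrps27, and chr10:95501900-95502199 on the minus strand for Mrpl42.
Mrpl32: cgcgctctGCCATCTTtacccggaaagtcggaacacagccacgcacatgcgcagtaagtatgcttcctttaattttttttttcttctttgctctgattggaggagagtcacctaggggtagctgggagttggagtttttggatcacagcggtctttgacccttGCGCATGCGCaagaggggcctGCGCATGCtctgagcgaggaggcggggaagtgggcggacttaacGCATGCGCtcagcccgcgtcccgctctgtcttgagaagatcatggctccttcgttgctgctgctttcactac
Mrpl33: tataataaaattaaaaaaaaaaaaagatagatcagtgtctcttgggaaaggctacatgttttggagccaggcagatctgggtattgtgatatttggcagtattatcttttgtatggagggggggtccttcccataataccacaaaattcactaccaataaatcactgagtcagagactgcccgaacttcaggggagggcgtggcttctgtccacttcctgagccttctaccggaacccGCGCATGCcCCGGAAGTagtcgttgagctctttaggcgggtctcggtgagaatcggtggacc
Mrps27: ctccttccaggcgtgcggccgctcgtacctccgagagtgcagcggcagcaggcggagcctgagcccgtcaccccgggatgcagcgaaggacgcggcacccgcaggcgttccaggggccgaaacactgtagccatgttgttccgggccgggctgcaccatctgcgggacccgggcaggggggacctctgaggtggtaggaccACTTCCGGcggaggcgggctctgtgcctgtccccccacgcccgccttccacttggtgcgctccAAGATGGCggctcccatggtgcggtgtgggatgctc
Mrpl42: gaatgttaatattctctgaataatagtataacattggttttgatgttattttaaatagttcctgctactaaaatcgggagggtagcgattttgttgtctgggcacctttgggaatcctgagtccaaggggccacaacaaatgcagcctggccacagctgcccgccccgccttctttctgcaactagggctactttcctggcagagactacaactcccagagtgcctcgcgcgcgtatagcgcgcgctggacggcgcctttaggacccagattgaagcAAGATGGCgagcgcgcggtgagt

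The injured limb was set against the non-injured limb under PLA Ab to find what ACLT changed in these genes. None of the 79 genes changed by limma's test with Benjamini-Hochberg adjustment, where 29.5% of all tested genes did (28% higher and 1.49% lower). At an unadjusted p under 0.05 there were 5 of the 79, and 41.3% of all tested genes. The log2 fold change of CPM + 1, PLA Ab ACLT over PLA Ab control, had a median of -0.03 over the 79 genes and 0.19 over all tested genes. It was positive for 32 and negative for 47 of them. All 79 lay between -0.21 and 0.26, and none exceeded 0.3 in size, where 42.3% of all tested genes did. The 95% interval lay within 0.5 of 0 for 78 of the 79, the exception being Mrpl23 with an upper bound of 0.517, and for 41.1% of all tested genes. In no gene were the 5 injured limbs all above or all below the 5 non-injured ones, which 10.3% of tested genes did upward and 0.459% downward.

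Mrps2, homolog of a bacterial small subunit protein, had the largest positive difference. It stood at 15.0, 18.6, 14.7, 17.0 and 19.9 CPM in PLA Ab ACLT, against 13.0, 14.5, 12.9, 14.9 and 14.5 CPM in PLA Ab control (log2 fold change 0.26 ± 0.10 SE, limma adjusted p = 0.0538). All injured limbs but limb 3 were above every non-injured limb. Mrps17, also a small subunit protein with a bacterial homolog, had 31.0, 27.7, 26.9, 29.2 and 32.2 CPM in PLA Ab ACLT, against 29.7, 25.4, 24.01, 22.2 and 25.3 CPM in PLA Ab control (0.21 ± 0.08, adjusted p = 0.0622). Non-injured limb 1 reached into the injured range. Mrpl52 and Mrpl23, both of the large subunit, had 0.23 ± 0.13 (adjusted p = 0.180) and 0.22 ± 0.14 (adjusted p = 0.249). The value of Mrpl23 rested on 14.1 CPM in injured limb 4, with 7.84 to 8.98 CPM in the other 4 injured limbs against 6.71 to 8.96 CPM in PLA Ab control. With same-numbered limbs of a mouse as a replicate block, Mrps2 and Mrps17 passed the test as higher, where 34.7% of all tested genes were higher and 3.07% lower. Median-of-ratios scaling, another way to put libraries on a common scale, turned Mrps17 to -0.04. It left Mrps2 at 0.02, the only positive value of the 79 genes on that scale. With array weights, which give less weight to libraries that deviate, Mrpl41, Mrps2, Mrpl39 and Mrpl52 passed as higher, where 42.6% of all tested genes passed (37.7% higher and 4.84% lower).

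Mrpl42 had the largest negative difference, with 135, 133, 129, 113 and 98.5 CPM in PLA Ab ACLT, against 132, 174, 129, 140 and 132 CPM in PLA Ab control (log2 fold change -0.21 ± 0.10, limma adjusted p = 0.0995). Injured limbs 4 and 5 were below every non-injured limb and the other 3 overlapped them. Mrpl2, whose bacterial homolog lies near the peptidyl transferase centre, had 55.2, 56.0, 59.5, 52.1 and 42.1 CPM in PLA Ab ACLT, against 56.5, 64.9, 56.7, 61.4 and 60.7 CPM in PLA Ab control (-0.18 ± 0.08, adjusted p = 0.0994). All its injured limbs but limb 3 were below every non-injured limb. Mrpl1, of the large subunit's L1 stalk, and Mrpl16, homolog of a bacterial protein at the tRNA binding sites, had -0.19 ± 0.09 (adjusted p = 0.127) and -0.18 ± 0.08 (adjusted p = 0.120). None of these 4 passed.

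**Figure D2:**
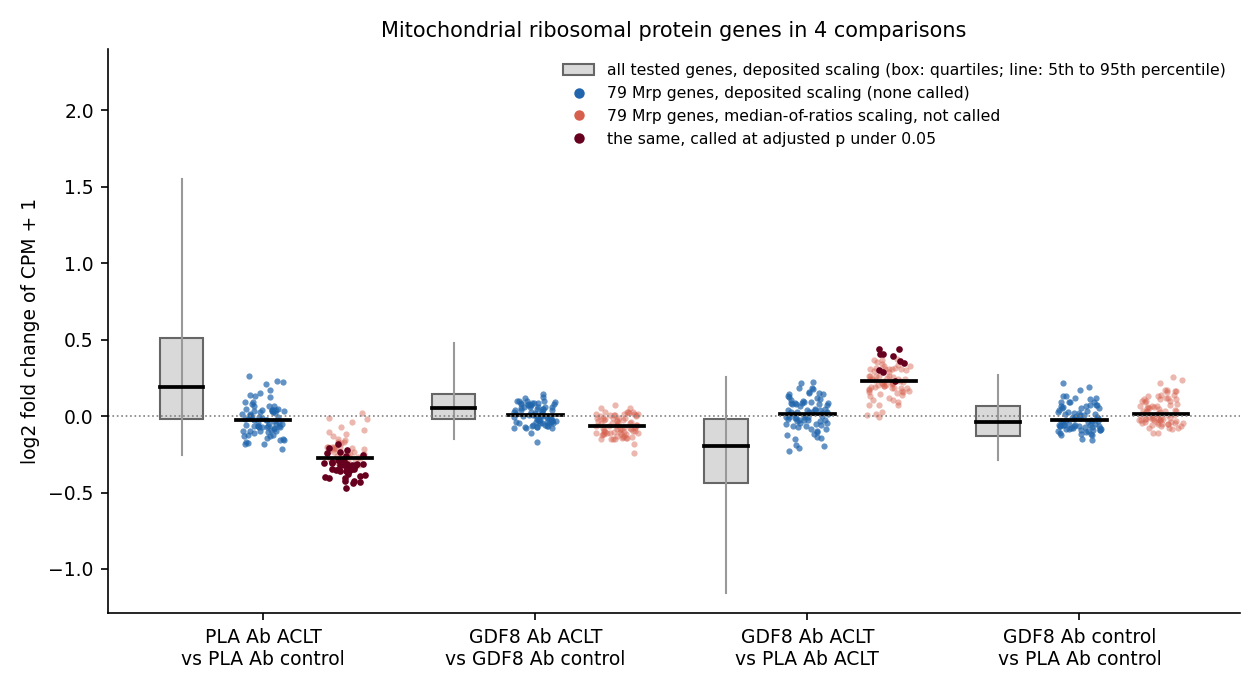
Log2 fold change of CPM + 1 for each of the 79 Mrp genes (points; black bar, median) in 4 comparisons, with the quartiles and the 5th to 95th percentile of all tested genes in grey. Under the deposited scaling the 79 genes lie between -0.21 and 0.26 in PLA Ab ACLT against PLA Ab control, and after median-of-ratios scaling 41 of them are called lower there and 10 higher in GDF8 Ab ACLT against PLA Ab ACLT.

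The answer depended on how libraries were put on a common scale. CPM gives each gene's share of all reads, and in PLA Ab ACLT many genes took larger shares, so the median of all tested genes stood at 0.19. Median-of-ratios scaling, computed here from the deposited values, moved that median to -0.03. The 5 PLA Ab ACLT libraries got the factors 0.951, 1.14, 1.01, 1.28 and 1.40, against 0.904 to 1.01 in the other 15 libraries. On this scale 41 of the 79 genes fell in PLA Ab ACLT against PLA Ab control and 0 rose, where 33.4% of all tested genes changed (19.1% higher and 14.3% lower). The median of the 79 was -0.28 and 1 of them was positive. In 7 of the 79 genes the injured limbs were all below the non-injured ones (4.32% of all tested genes). As shares of reads the genes were thus near level, and relative to the median gene they were lower.

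Mrpl35, a large subunit protein with a bacterial homolog, had the lowest p on this scale. Its CPM before scaling was 26.9, 32.4, 25.8, 28.9 and 27.6 in PLA Ab ACLT, against 29.3, 35.7, 28.5, 32.5 and 30.9 in PLA Ab control, 2 ranges that overlap. The injured limb was the lower one in every same-numbered pair, a pattern that was not counted over all tested genes. The replicate block, which takes the same correlation for every gene, did not call Mrpl35 before scaling. No paired test of this gene alone was run. After scaling its log2 fold change was -0.39 ± 0.09 (limma adjusted p = 0.00298). Mrpl30, Mrps18b, Mrpl18, Mrpl1 and Mrpl50 followed, with -0.41 (adjusted p = 0.00665), -0.35 (0.00688), -0.42 (0.00718), -0.43 (0.00876) and -0.38 (0.00896). The next 6 by p were Mrpl16, Mrpl11, Mrpl17, Mrpl38, Mrps28 and Mrpl2, between -0.44 and -0.22. Without PLA Ab ACLT libraries 4 and 5, which have the largest factors and the most macrophage and matrix marker reads, 1 gene (Mrpl35) fell on this scale, where 1.51% of all tested genes did, and the median of the 79 was -0.11. Leaving out a single library gave between 13 and 58 genes, with 13 without PLA Ab ACLT library 5, 15 without library 4 and 58 without library 1, where 6.16%, 7.20% and 20.6% of all tested genes were lower. It gave 22 and 26 genes without PLA Ab control libraries 2 and 3, where 10.9% and 10.3% of all tested genes were lower. The part of the other cells' RNA in this difference was not tested.

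The same contrast under GDF8 Ab asked whether ACLT changed these genes when GDF8 was blocked. None of the 79 genes changed (limma), 0 had an unadjusted p under 0.05, and 0.0222% of all tested genes changed. The median log2 fold change, GDF8 Ab ACLT over GDF8 Ab control, was 0.01 over the 79 genes and 0.05 over all tested genes. All 79 lay between -0.17 and 0.14, and all 95% intervals lay within 0.5 of 0, against 62.4% of all tested genes. In none did the groups separate, against 1.75% of tested genes upward and 0.0518% downward. Mrpl40, Mrpl47, Mrpl23 and Mrps17 had the largest positive values, 0.14, 0.13, 0.12 and 0.10. Mrpl16, Mrpl9, Mrps27 and Mrps34 had the most negative, -0.17, -0.11, -0.08 and -0.08, all with an adjusted p of 0.9999. Mrpl16 stood at 36.1, 28.6, 35.6, 29.3 and 30.6 CPM in GDF8 Ab ACLT, against 37.1, 31.9, 37.4, 37.4 and 36.3 CPM in GDF8 Ab control. Its injured limbs 2, 4 and 5 were below every non-injured limb and the other 2 were not. In every same-numbered pair the injured limb was the lower one, a pattern that was not counted over all tested genes. The fit with the replicate block, which takes the same correlation for every gene, did not call Mrpl16. Median-of-ratios scaling also called 0 of the 79 genes here, against 0.0296% of all tested genes (all higher), with a median of -0.07.

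The injured limbs under GDF8 Ab were set against those under PLA Ab, a comparison that shares its PLA Ab ACLT libraries with the one above. None of the 79 genes changed (limma), where 18.3% of all tested genes did (0.733% higher and 17.6% lower). At an unadjusted p under 0.05 there were 6 of the 79 and 38% of all tested genes. The median log2 fold change, GDF8 Ab ACLT over PLA Ab ACLT, was 0.02 over the 79 genes and -0.20 over all tested genes. All 79 lay between -0.23 and 0.22, and none exceeded 0.3 in size, where 41.4% of all tested genes did. All 79 intervals at 95% lay within 0.5 of 0, against 41.2% of all tested genes.

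Mrpl16 had 36.1, 28.6, 35.6, 29.3 and 30.6 CPM in GDF8 Ab ACLT, against 27.8, 30.0, 27.9, 25.2 and 25.2 CPM in PLA Ab ACLT (log2 fold change 0.22 ± 0.08, limma adjusted p = 0.0652). Injured limbs 1, 3 and 5 under GDF8 Ab were above every limb under PLA Ab and the other 2 overlapped them. Mrpl42 had 149, 131, 135, 137 and 153 CPM in GDF8 Ab ACLT, against 135, 133, 129, 113 and 98.5 CPM in PLA Ab ACLT (0.22 ± 0.10, adjusted p = 0.109), with PLA Ab limbs 1 and 2 inside the range of the GDF8 Ab limbs. Mrpl3, a protein near the large subunit's catalytic centre that is mutated in a human cardiomyopathy, had 0.19 ± 0.12 (adjusted p = 0.253), and Mrpl2 had 0.19 ± 0.08 (adjusted p = 0.110). At the other end stood Mrpl52 with -0.23 ± 0.13 (adjusted p = 0.197), Mrps2 with -0.21 ± 0.10 (0.138), Mrps17 with -0.19 ± 0.08 (0.0991) and Mrpl23 with -0.19 ± 0.14 (0.323). With array weights 5 of the 79 passed as lower (Mrps2, Mrpl35, Mrpl43, Mrpl41 and Mrpl39), where 35.5% of all tested genes were lower and 2.22% higher.

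Mrps10, homolog of a bacterial protein of the small subunit's head, was the only member whose 2 groups of CPM values did not overlap in this comparison, and it was picked out after its values were seen. It had 25.4, 24.9, 24.7, 24.2 and 26.3 CPM in GDF8 Ab ACLT, against 27.0, 27.5, 26.5, 27.7 and 31.2 CPM in PLA Ab ACLT. Every limb under GDF8 Ab was lower (log2 fold change -0.15 ± 0.06, limma adjusted p = 0.0924), a separation that 4.21% of tested genes showed downward and 0.304% upward. After median-of-ratios scaling its groups overlapped and its log2 fold change was 0.07. On that scale Mrpl17, Mrpl27, Mrpl40 and Mrps30 were higher in every limb under GDF8 Ab than in any under PLA Ab, which 1.66% of tested genes showed.

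After median-of-ratios scaling 10 of the 79 genes were higher in GDF8 Ab ACLT and 0 were lower, where 3.74% of all tested genes were higher and 8.91% lower. The median of the 79 was 0.23, with 78 positive, beside 0.0015 for all tested genes. Mrpl50, a large subunit protein specific to mitochondria, had 44.2, 40.2, 47.2, 39.2 and 40.5 CPM in GDF8 Ab ACLT, against 35.8, 38.3, 41.5, 34.9 and 35.9 CPM in PLA Ab ACLT before scaling, and 0.40 ± 0.10 after it (limma adjusted p = 0.0236). Limb 3 under PLA Ab alone reached into the range of the GDF8 Ab limbs. The other 9 were Mrpl16 (0.44, adjusted p = 0.0256), Mrps30, Mrps11, Mrpl3, Mrpl2, Mrpl42, Mrpl37, Mrpl38 and Mrpl1, with adjusted p up to 0.0498. Without PLA Ab ACLT libraries 4 and 5 none passed, and the median was 0.07. Leaving out 1 library gave between 0 and 45 genes, with 0 without PLA Ab ACLT library 4 or 5 or GDF8 Ab ACLT library 4, 32 without PLA Ab ACLT library 3 and 45 without library 1. Of all tested genes, 0.0448%, 0.321% and 0.296% were higher in the fits that gave 0, and 10.5% and 12.4% in those that gave 32 and 45.

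**Figure D3:**
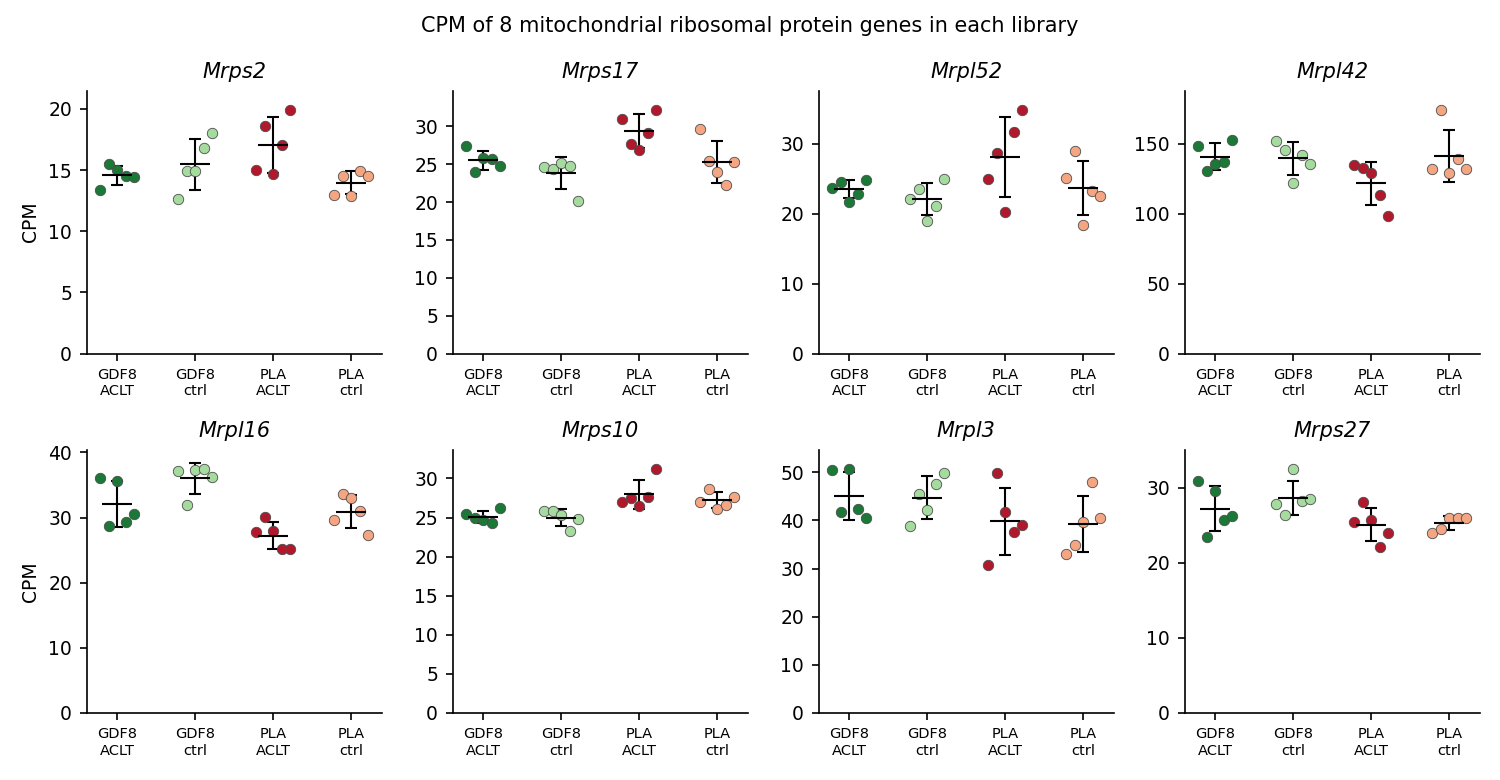
CPM of 8 mitochondrial ribosomal protein genes in each library, with points for libraries and bars for the mean ± SD of 5 libraries; axes start at 0. Mrps10 lies between 24.2 and 26.3 CPM in GDF8 Ab ACLT against 26.5 and 31.2 CPM in PLA Ab ACLT, while the groups of Mrpl42 and Mrps2 overlap.

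In non-injured limbs the antibodies were compared without injury. None of the 79 genes differed (limma), and 0% of all tested genes did. At an unadjusted p under 0.05 there were 2 of the 79, Mrpl16 and Mrpl11, against 5.93% of all tested genes. The median log2 fold change, GDF8 Ab control over PLA Ab control, was -0.03 over the 79 genes and -0.04 over all tested genes, and the 79 lay between -0.15 and 0.21. Mrpl16 had 37.1, 31.9, 37.4, 37.4 and 36.3 CPM in GDF8 Ab control, against 29.7, 33.6, 33.0, 31.0 and 27.3 CPM in PLA Ab control (0.21 ± 0.08, adjusted p = 0.691). All but limb 2 under GDF8 Ab were above the PLA Ab range. Mrpl3 and Mrps2 had 0.19 and 0.13. Mrpl40, Mrpl11, Mrpl53 and Mrps24 were the most negative, with -0.15, -0.15, -0.13 and -0.12.

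Groups of 2 genes did not overlap in CPM in non-injured limbs, and neither gene's groups separated after median-of-ratios scaling. Mrps27, a small subunit protein with RNA-binding repeats, had 27.8, 26.4, 32.5, 28.2 and 28.5 CPM in GDF8 Ab control, against 24.02, 24.5, 26.0, 25.9 and 26.0 CPM in PLA Ab control (log2 fold change 0.17 ± 0.08, limma adjusted p = 0.834; 0.304% of tested genes separated upward). Mrps10 had 25.8, 25.8, 25.3, 23.3 and 24.8 CPM in GDF8 Ab control, against 27.0, 28.7, 26.0, 26.6 and 27.7 CPM in PLA Ab control (-0.12 ± 0.06, adjusted p = 0.85; 1.89% separated downward). In CPM, though not after that scaling, all 10 limbs under GDF8 Ab thus had less Mrps10 than any of the limbs of the same kind under PLA Ab.

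Over both limbs together, 0 of the 79 genes differed between antibodies, 9 had an unadjusted p under 0.05 (30.4% of all tested genes), and 1.05% of all tested genes differed (0.163% higher and 0.889% lower). Mrpl16 had the lowest adjusted p, with a log2 fold change of 0.22 ± 0.06 (limma adjusted p = 0.0617), and after median-of-ratios scaling it was the only one of the 79 to pass (adjusted p = 0.0471), where 1.02% of all tested genes did (0.488% higher and 0.532% lower). Fits for this mean without the replicate block counted both limbs of a mouse as separate replicates of its antibody. With median-of-ratios scaling and the block, Mrpl16 did not pass (lowest limma adjusted p of the 79, 0.108). There 0.0296% of all tested genes were higher and 0.0148% lower. Mrps10 had -0.13 ± 0.04 (adjusted p = 0.0881). The interaction, which asks whether the injury difference depends on the antibody, was called in 0 of the 79 and in 0% of all tested genes. At an unadjusted p under 0.05 there was 1 of the 79, against 16% of all tested genes. This was Mrps2 (-0.34 ± 0.14, adjusted p = 0.279). Its injury difference was -0.07 ± 0.10 under GDF8 Ab and 0.26 ± 0.10 under PLA Ab. After median-of-ratios scaling the interaction of Mrps2 was -0.16 and its injury difference under PLA Ab was 0.02. With array weights 5 of the 79 passed for the mean of both limbs (1 higher and 4 lower), where 30.2% of all tested genes did (1.76% higher and 28.4% lower). In that fit Mrps2 passed for the interaction (-0.43), where 17.8% of all tested genes did (1.63% higher and 16.2% lower).

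The medians of the 2 subunits lay close together. In PLA Ab ACLT against PLA Ab control the median log2 fold change was -0.02 over the 51 large subunit genes, with 22 positive, and -0.03 over the 26 small subunit genes, with 9 positive. It was -0.04 over the 46 genes with a bacterial homolog and -0.01 over the 31 specific to mitochondria. The summed CPM of large subunit genes was 2.30 to 2.49 times that of small subunit genes in every one of the 20 libraries.

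Members with roles beyond the ribosome's core also passed in none of the 6 comparisons under the deposited scaling, except Mrpl11 for the mean of both limbs with array weights. Mrpl12, the stalk protein that also binds mitochondrial RNA polymerase, had 93.7 ± 16.2 CPM in GDF8 Ab ACLT, 94.3 ± 5.99 in GDF8 Ab control, 85.6 ± 7.94 in PLA Ab ACLT and 89.7 ± 7.05 in PLA Ab control (SD, n = 5 each). Its log2 fold change was -0.07 ± 0.10 for injury under PLA Ab and 0.12 ± 0.10 for antibody in injured limbs. Its partners at the stalk base, Mrpl10 and Mrpl11, had 0.08 ± 0.07 and -0.09 ± 0.06 for injury under PLA Ab. Mrpl58, a peptidyl-tRNA hydrolase built into the large subunit that frees stalled ribosomes, had 24.6 ± 1.68 CPM in GDF8 Ab ACLT, 24.2 ± 2.31 in GDF8 Ab control, 25.2 ± 2.80 in PLA Ab ACLT and 25.5 ± 5.12 in PLA Ab control, means that lie within 1 SD of each other. Mrps12, of the decoding centre, had 0.04 ± 0.11 for injury under PLA Ab. The 3 paralogs Mrps18a, Mrps18b and Mrps18c had -0.01 ± 0.07, -0.10 ± 0.06 and 0.14 ± 0.11.

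Several members are known as genes of human mitochondrial disease. For injury under PLA Ab, Mrps7, Mrps22 and Mrps34 had log2 fold changes of -0.10 ± 0.07, -0.08 ± 0.10 and -0.05 ± 0.07, and Mrpl44 had -0.05 ± 0.10. Mrpl3 had 0.02 ± 0.12, with 30.7, 49.9, 41.8, 37.7 and 39.1 CPM in PLA Ab ACLT against 33.1, 34.95, 39.7, 48.1 and 40.5 CPM in PLA Ab control, ranges that lie largely within each other. Mrps30 and Mrpl41, both also described in cell death, had 0.07 ± 0.10 and 0.17 ± 0.09. Mrpl18, which in human cells also yields a cytosolic form under heat shock, had -0.17 ± 0.08 (limma adjusted p = 0.124). Mrps36, outside the ribosome, had -0.13 ± 0.10. None of these values passed under the deposited scaling, except Mrpl41 with array weights. After median-of-ratios scaling Mrps18b, Mrpl18, Mrpl11, Mrps7, Mrps22, Mrps34, Mrps30 and Mrps36 fell in PLA Ab ACLT against PLA Ab control, between -0.42 and -0.18, with Mrps30 turning to the lower side. On that scale 41 of the 79 genes and 14.3% of all tested genes fell in this comparison.

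Genes around the mitoribosome gave few calls. The 5 mitoribosomal proteins with other names (Dap3, Ptcd3, Gadd45gip1, Chchd1 and Aurkaip1) gave 0 calls and medians of -0.11 in PLA Ab ACLT against PLA Ab control and 0.11 in GDF8 Ab ACLT against PLA Ab ACLT. All 5 fell in the first of these comparisons after median-of-ratios scaling, where 14.3% of all tested genes fell. None of 17 translation factors and 22 aminoacyl-tRNA synthetases passed in these comparisons. With the replicate block Mtfmt, which formylates the initiator tRNA, and the synthetase gene Gars rose in the first (0.35, adjusted p = 0.0249, and 0.30, adjusted p = 0.0484), where 34.7% of all tested genes rose. After median-of-ratios scaling 5 of the 17 and 4 of the 22 fell there, the second a share near that of all tested genes. Of 27 assembly and rRNA modification genes, 1 rose and 1 fell in PLA Ab ACLT against PLA Ab control, where 28% and 1.49% of all tested genes did. With the replicate block 1 rose and 3 fell, where 34.7% and 3.07% of all tested genes did. The block added Mtg1 and Malsu1 (both -0.21, adjusted p = 0.0305 and 0.0465). The RNA helicase gene Dhx30 had 28.7, 32.4, 29.8, 33.5 and 40.2 CPM in PLA Ab ACLT, against 26.2, 26.9, 26.1, 25.7 and 29.0 CPM in PLA Ab control (log2 fold change 0.28 ± 0.09, limma adjusted p = 0.0193). Fastkd2, an RNA-binding protein needed for the large subunit's rRNA, had 15.4, 16.9, 20.6, 18.8 and 17.0 CPM in PLA Ab ACLT, against 18.5, 26.0, 22.5, 22.4 and 21.2 CPM in PLA Ab control (-0.30 ± 0.09, adjusted p = 0.0176). For each gene 1 non-injured limb lay within the injured range. After median-of-ratios scaling Dhx30 no longer passed (0.03, adjusted p = 0.723) while Fastkd2 did (-0.54, adjusted p = 0.00134), as 1 of 7 genes of this list that fell.

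Of 14 genes of mitochondrial transcription and DNA, 1 fell in PLA Ab ACLT against PLA Ab control, where 1.49% of all tested genes did. Tfb2m, which melts mitochondrial promoters for the RNA polymerase, had 52.4, 54.5, 56.9, 50.5 and 48.8 CPM in PLA Ab ACLT, against 52.9, 66.4, 65.8, 61.5 and 67.3 CPM in PLA Ab control (-0.25 ± 0.07, limma adjusted p = 0.0132). Non-injured limb 1 alone lay within the injured range. With the replicate block Tfam, which packages mitochondrial DNA, also fell (-0.17, adjusted p = 0.0379), where 3.07% of all tested genes did. After median-of-ratios scaling 5 of the 14 fell, where 14.3% of all tested genes did. Of 9 regulators of mitochondrial biogenesis, Myc and Pprc1 rose in PLA Ab ACLT against PLA Ab control (1.21 ± 0.38, adjusted p = 0.0248, and 0.50 ± 0.16, adjusted p = 0.0265), where 28% of all tested genes rose. Pprc1 and Gabpb1, a subunit of GABP, were lower in GDF8 Ab ACLT than in PLA Ab ACLT (-0.52 ± 0.16, adjusted p = 0.038, and -0.45 ± 0.16, adjusted p = 0.0493), where 17.6% of all tested genes were lower. Both counts are near these shares. Pprc1, a coactivator of NRF1, had 17.4, 16.1, 15.9, 16.6 and 15.6 CPM in GDF8 Ab ACLT, against 17.3, 21.5, 17.9, 29.8 and 38.4 CPM in PLA Ab ACLT, with the highest values in injured limbs 4 and 5 under PLA Ab. With the replicate block Gabpb1 also rose in PLA Ab ACLT against PLA Ab control (0.40, adjusted p = 0.0250), where 34.7% of all tested genes rose. After median-of-ratios scaling Pprc1 passed in neither comparison (adjusted p = 0.0806 and 0.0675), nor did Gabpb1 in GDF8 Ab ACLT against PLA Ab ACLT (0.135). Without those 2 libraries none of the genes of these 6 lists passed in either comparison, although Fastkd2 and Tfb2m had -0.31 and -0.19 for injury under PLA Ab, and both fell without them after median-of-ratios scaling (adjusted p = 0.0214 and 0.0319). The 15 genes encoded in mitochondrial DNA, added after their values were seen, gave 0 calls by limma in either comparison and 2 at an unadjusted p under 0.05 in each, with medians of -0.34 in PLA Ab ACLT against PLA Ab control and 0.28 in GDF8 Ab ACLT against PLA Ab ACLT. The genes mt-Nd4l and mt-Nd2, of complex I, fell in the first comparison with the replicate block (-0.38 and -0.42, adjusted p = 0.0448 and 0.0455), where 3.07% of all tested genes fell. They also fell there after median-of-ratios scaling (-0.64 and -0.68), where 14.3% of all tested genes fell. On that scale the medians of the 15 in the 2 comparisons were -0.59 and 0.51.

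Cytosolic ribosomal protein genes differed from the mitochondrial set in how libraries spread. Of 96 such genes, 31 rose in PLA Ab ACLT against PLA Ab control and 0 fell, near the share of all tested genes that rose (28%), with a median log2 fold change of 0.35. With the replicate block 50 rose, where 34.7% of all tested genes did. In GDF8 Ab ACLT 17 were lower than in PLA Ab ACLT (17.6% of all tested genes), with a median of -0.33. Rpl3, of the large cytosolic subunit, had the lowest p, with 66.4, 130, 62.2, 227 and 363 CPM in PLA Ab ACLT against 48.1, 47.7, 29.8, 44.1 and 51.5 CPM in PLA Ab control (1.61 ± 0.35, limma adjusted p = 0.00318), 2 ranges that did not overlap. Such a separation upward was seen in 10.3% of tested genes. Rps4l and Rpl41 also rose (1.37 and 0.72), and Rpl10, Rps16 and Rpl21 were lower in GDF8 Ab ACLT than in PLA Ab ACLT (-0.59, -0.60 and -0.42). Without PLA Ab ACLT libraries 4 and 5, Rpl3 alone rose and none was lower under GDF8 Ab. Of all 13502 tested genes, 1005 rose and 68 were lower under GDF8 Ab in that fit. After median-of-ratios scaling 3 (Rpl3, Rps4l and Rpl41) rose and 1 (Rpl3l) fell in the injury comparison. Of all tested genes 19.1% rose and 14.3% fell there. On that scale Rpl3 and Rpl10 alone were lower under GDF8 Ab, where 8.91% of all tested genes were, so that Rps16 and Rpl21 did not pass.

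Summed over each set, the 79 mitochondrial ribosomal protein genes held 2737, 2904, 2711, 2735 and 2633 CPM in PLA Ab ACLT, against 2699, 3237, 2627, 2840 and 2744 CPM in PLA Ab control. The sums averaged 2815 ± 137 CPM in GDF8 Ab ACLT and 2807 ± 76.3 CPM in GDF8 Ab control. The 96 cytosolic genes held 14093, 15547, 11626, 19155 and 22737 CPM in PLA Ab ACLT, against 13047, 15919, 10245, 11790 and 12676 CPM in PLA Ab control. In CPM the mitochondrial sum was thus nearly level across libraries. After median-of-ratios scaling it was 2879.6, 2556, 2673, 2129 and 1878 in PLA Ab ACLT, against 2787 to 3257 in PLA Ab control, with libraries 4 and 5 the lowest. PLA Ab ACLT libraries 4 and 5 had the highest cytosolic sums of the series. For each 100 CPM of cytosolic ribosomal protein genes there were 14.3 and 11.6 CPM of mitochondrial ones in these 2 libraries, against 18.7 to 27.0 in the other 18 libraries. The same 2 libraries had the lowest sums of mitochondrially encoded genes, 86414 and 72134 CPM, against 95505 to 158810 CPM in the others. They also had the highest macrophage and matrix marker sums given above, and the part of those cells was not tested.

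**Figure D4:**
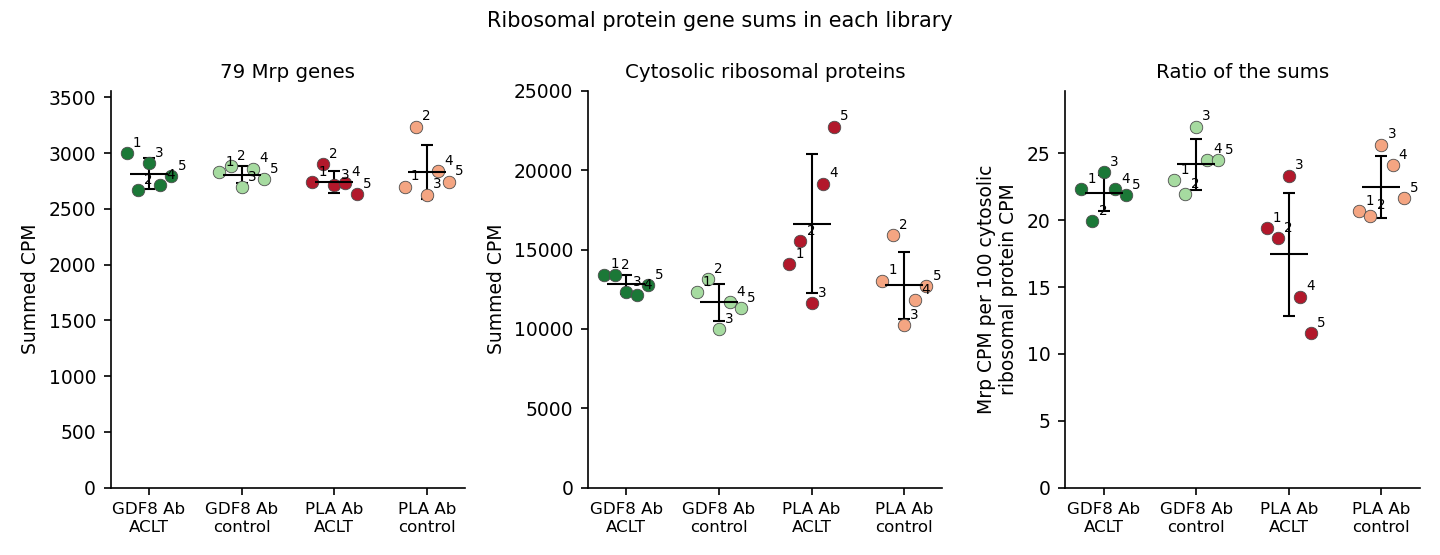
Summed CPM of the 79 mitochondrial ribosomal protein genes, of 96 cytosolic ribosomal protein genes and the ratio of the sums (mitochondrial CPM per 100 cytosolic CPM) in each library; numbers are library numbers and bars the mean ± SD of 5 libraries. The mitochondrial sums lie between 2627 and 3237 CPM in all 20 libraries, while PLA Ab ACLT libraries 4 and 5 have the highest cytosolic sums and ratios of 14.3 and 11.6.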

How the data were processed

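RNA was sequenced from 20 mouse quadriceps samples, in 4 groups of 5 placed by GEO's labels. The deposited values are CPM, scaled by the authors to 1000000 per library; the submitters' processing notes name STAR 2.7.3a, Partek and DESeq2, and both mm10 and mm39. The counting step and its strand setting are not given in the sources used here. Gene starts equalled those of GRCm38 for 1 of the 79 genes, so coordinates printed are those of the promoter table (GRCm38.p6). The smallest steps between values gave depths of 15.6 to 24.2 in units of 1e+06 reads, so that 3 reads are 0.124 to 0.193 CPM (counting error only). No count model was fitted, because read counts could not be recovered from enough values.

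Genes with at least 1 CPM in 5 libraries (13502) were tested on log2(CPM + 1) with limma 3.58.1 (R 4.3.3), 4 group means and all 20 libraries, with Benjamini-Hochberg adjustment over all genes and a threshold of 0.05. The fold changes understate those of low genes. The fit was tested on simulated data. Genes named in the text are those called (at most 12 by p), the 4 highest and 4 lowest fold changes in each comparison of 2 groups, the 4 highest and lowest mean CPM, 17 genes with known roles, and called genes of the other lists (at most 4 a comparison); Mrps10, Mrps27, Mrpl50 and Mrpl35 were added or followed after their values were seen. The members and lists were chosen with earlier results of these data known.

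Whether same-numbered limbs pair was checked: Y-linked expression matched in 10 of 10 pairs and deviations correlated at 0.0347 to 0.517, above 0.1 in 8 of 10. Because the study operated on 1 limb of each mouse, these limbs were taken as those of a mouse, and a fit with the replicate block is given where it changes a call of a gene or list described. The block under the deposited scaling took the same correlation, 0.225, for every gene, so it was not a paired test of each gene. The labels do not say that libraries of a group came from separate mice, but the study reports 5 mice in each group for this sequencing, not pooled. Were that otherwise, p-values would measure only the spread between these samples. Alternatives were a pseudocount of 0.5, filters of 10 CPM and of none, median-of-ratios scaling, the replicate block, a Y-linked covariate, array weights, fits of the compared groups alone, leaving out each library, and leaving out PLA Ab ACLT libraries 4 and 5. Tables and figures were made with Python 3.11.15, pandas 2.3.3, scipy 1.17.1 and matplotlib 3.10.9. Transcript lengths are from GENCODE M21.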

Additional observations from a re-analysis of the deposited data

Results flagged for a closer look

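The 100 groups of 5 libraries tested covered the genes named and also measures of whole libraries, such as sums and ratios. In 7 of them, all for genes, a library lay far from the other 4 (a gap to the nearest over the group's range above Dixon's critical value of 0.71). Chance gives this in about 1 group in 20, and the share among the groups for genes alone was higher than that over all 100. In GDF8 Ab control these were Mrpl16 at 31.9 CPM in library 2, Mrps17 at 20.1 CPM in library 5, both low, and Mrps34 at 49.6 CPM in library 3, high. In PLA Ab ACLT Mrpl23 stood at 14.1 CPM and Mrps24 at 42.0 CPM in library 4, and Mrps10 at 31.2 CPM in library 5, all high. In PLA Ab control Mrpl42 stood at 174 CPM in library 2, also high.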

How the results depend on the processing

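Under the deposited scaling, no member was called with a pseudocount of 0.5, another filter, fits of the compared groups alone or without PLA Ab ACLT libraries 4 and 5. In PLA Ab ACLT against PLA Ab control, 1 gene was called with the Y-linked covariate, 4 with array weights and 2 with the replicate block, all higher. With array weights and the block, 37.7% and 34.7% of all tested genes were higher. But 41 were called after median-of-ratios scaling, 53 with that scaling and the block, and 1 with that scaling without libraries 4 and 5, all lower. In these 3 fits 14.3%, 20% and 1.51% of all tested genes were lower. In GDF8 Ab ACLT against PLA Ab ACLT, the count was 3 with the covariate (2 higher), 5 with array weights (all lower), 10 after median-of-ratios scaling and 8 with the block as well (all higher). Of all tested genes, 35.5% were lower with array weights, and 3.74% and 3.49% were higher in the last 2 fits. For the mean of both limbs it was 3, 5 and 1 with the covariate, array weights and median-of-ratios scaling (0 with the block as well), and for the interaction 1 (Mrps2) with array weights. The block changed no other call of the 79 genes under the deposited scaling; its calls in the other lists stand beside them. With the covariate 32.4% of all tested genes were higher and 2.33% lower in PLA Ab ACLT against PLA Ab control, 1.57% and 32% in GDF8 Ab ACLT against PLA Ab ACLT, and 1.15% and 17.9% for the mean of both limbs. Leaving out 1 library gave 0 to 4 genes in PLA Ab ACLT against PLA Ab control (4 without PLA Ab ACLT 3: Mrps2, Mrpl52, Mrps17 and Mrpl2; 1 or 2 without PLA Ab ACLT 1, PLA Ab control 1 or GDF8 Ab control 1 or 5), 0 to 3 in GDF8 Ab ACLT against PLA Ab ACLT (3 without PLA Ab ACLT 3, 1 without PLA Ab ACLT 1), 0 to 3 for the mean of both limbs (without PLA Ab ACLT 1, 2 or 3) and 0 in the other 3. In the fits with calls, 22.8% to 39.9% of all tested genes were higher in the first comparison (35.4%, with 2.98% lower, without PLA Ab ACLT 3). In the second, 1.78% were higher and 31.2% lower without PLA Ab ACLT 3, and 1.49% and 37.9% without PLA Ab ACLT 1. For the mean of both limbs 0.459% to 1.3% were higher and 2.16% to 24.5% lower. After median-of-ratios scaling it gave 13 to 58 and 0 to 45 in the first 2 comparisons.

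The median log2 fold change of the 79 genes in PLA Ab ACLT against PLA Ab control was 0.0503 with array weights, -0.28 after median-of-ratios scaling, also with the block, and -0.11 with that scaling without libraries 4 and 5. After that scaling, with or without the block, it was 0.23 in GDF8 Ab ACLT against PLA Ab ACLT, -0.0653 in GDF8 Ab ACLT against GDF8 Ab control (-0.0631 without libraries 4 and 5), 0.121 for the mean of both limbs and 0.205 for the interaction, which was -0.0538 with array weights. Leaving out 1 library, the medians ranged over -0.0531 to 0.0136 in PLA Ab ACLT against PLA Ab control (positive without PLA Ab control 2), 0.000847 to 0.0417 in GDF8 Ab ACLT against PLA Ab ACLT, -0.0108 to 0.0242 in GDF8 Ab ACLT against GDF8 Ab control, -0.0474 to 0.0357 in GDF8 Ab control against PLA Ab control, -0.0204 to 0.0174 for the mean of both limbs and -0.0134 to 0.058 for the interaction.

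Of 37 log2 fold changes of named genes, followed over the alternatives, 738 values kept their side of the threshold, 44 came to pass it and 19 changed sign. In GDF8 Ab ACLT against PLA Ab ACLT, median-of-ratios scaling, with or without the block, turned Mrpl23 to 0.0108, Mrps10 to 0.0696, Mrps17 to 0.0238 and Mrps2 to 0.00736; without libraries 4 and 5 as well, Mrpl23 was 0.0479 and Mrpl52 0.0126, and array weights turned Mrpl3 to -0.098. In PLA Ab ACLT against PLA Ab control that scaling, with or without the block, turned Mrpl23 to -0.00913, Mrpl52 to -0.0169 and Mrps17 to -0.0358; without libraries 4 and 5 as well, Mrpl23 was -0.0434 and Mrpl52 -0.0339. For all of these the cause was not tested. Median-of-ratios scaling combined with another setting was added after seeing the data. Depth sets little limit here, since each gene's mean was at least 8.10 CPM.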
